A study of Mus musculus with 7 samples.

Results

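The Igf2-H19 and Kcnq1 imprinted cluster lies on distal chromosome 7 of the mouse and is described here through 10 genes, H19, Igf2, Ascl2, Cd81, Tssc4, Kcnq1, Kcnq1ot1, Cdkn1c, Slc22a18 and Phlda2. The 10 genes were chosen by symbol from the 43346 genes in the deposited counts, and all 10 were found. Their measured values were not part of the rule, but earlier results of these data were known when they were chosen. RNA came from growth plates of the tibia, the cartilage discs from which long bones lengthen, of 7 male C57BL/6JxCAST/EiJ F1 mice killed at 21 d of age. Every mouse carried 1 C57BL/6J (B6) and 1 CAST/EiJ (CAST) copy of each autosome, and none received a treatment. The comparison was between the B6 and CAST alleles of these 7 mice. Mice are named by the numbers in their labels, 1, 2, 3, 4, 5, 7 and 8.

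Most autosomal genes are transcribed from both parental copies. At imprinted genes, DNA methylation laid down in egg or sperm keeps 1 parental copy silent. In the first domain of this cluster, H19, a long noncoding RNA, is transcribed from the maternal copy, and Igf2, which encodes the fetal growth factor IGF2, from the paternal copy, because CTCF bound to the unmethylated maternal control region keeps shared enhancers from Igf2. In the second domain the noncoding RNA Kcnq1ot1 is made from the paternal copy and silences neighbouring genes on that copy, so that Cdkn1c, Phlda2 and Slc22a18 are expressed mainly from the maternal copy. Ascl2, Tssc4 and Cd81 are known for maternal expression mainly in placenta.

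The mother's strain is not named in the labels. Mitochondrial RNA, which is inherited from the mother, was 99.98% to 99.99% B6 in the 7 mice, and X-linked genes, of which a male has only the maternal copy, were 90.2% to 91.6% B6. These shares are those of a B6 mother and a CAST father in all 7 mice. With 1 direction of the cross, an effect of strain and an effect of parent of origin cannot be told apart for any single gene below. Autosomal counts as a whole were 49.4% to 49.7% B6. Total estimated counts per mouse had a lowest value of 14098019, a median of 27603769 and a highest value of 37849667, and 15.5% to 23.8% of them fell on the structural RNA genes Rn7s1, Rn7s2 and Rn7sk. All 10 chondrocyte markers examined, such as Col2a1 and Acan, were detected in every mouse, with a summed level of 62160 to 102274 counts scaled to a library of 1000000 (CPM). The dissected tissue also held markers of other cells, all detected, with summed levels of 36036 to 65390 CPM for 6 osteoblast, 7891 to 19319 CPM for 6 erythroid, 3851 to 8366 CPM for 8 muscle, 1172 to 2523 CPM for 6 myeloid, 158 to 367 CPM for 6 B cell, 177 to 259 CPM for 5 endothelial and 88.8 to 169 CPM for 5 adipocyte genes. Their part in the results was not tested.

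H19 and Igf2 also carry microRNA genes. Their mature sequences (RefSeq, GRCm38.p6) are shown because the allele that makes the host transcript is the allele from which these microRNAs can be cut. The libraries were made to hold RNA longer than 200 nt, so the mature microRNAs themselves were not measured. Capitals mark the seed, bases 2 to 8 from the 5′ end. The 4 seeds all differ.
miR-675-5p, in an exon of H19 at chr7:142577112-142577133, minus strand: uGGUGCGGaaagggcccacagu
miR-675-3p, in the same exon at chr7:142577078-142577099, minus strand: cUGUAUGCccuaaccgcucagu
miR-483-5p, in an intron of Igf2 at chr7:142654968-142654989, minus strand: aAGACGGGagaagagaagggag
miR-483-3p, in the same intron at chr7:142654932-142654952, minus strand: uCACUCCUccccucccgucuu

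Kcnq1ot1 starts inside an intron of Kcnq1, on the opposite strand, and its start lies in the maternally methylated control region of the second domain. Its promoter is shown because counts of its transcript differed widely between the 2 alleles. The 300 bases of B6 reference (RefSeq, GRCm38.p6) at chr7:143296498-143296797, minus strand, cover 250 bases before and 50 bases after the start, and capitals mark the motif CCAAT, the box bound by the factor NF-Y.
Kcnq1ot1: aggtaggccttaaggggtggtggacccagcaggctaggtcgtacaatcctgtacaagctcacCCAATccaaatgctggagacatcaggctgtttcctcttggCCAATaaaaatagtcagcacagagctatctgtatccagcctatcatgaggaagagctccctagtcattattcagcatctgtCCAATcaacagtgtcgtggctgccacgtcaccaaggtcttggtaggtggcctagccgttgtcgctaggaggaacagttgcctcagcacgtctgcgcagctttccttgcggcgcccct
CCAAT occurred 3 times, and its reverse complement ATTGG occurred 0 times. Of 32851 mouse promoters of the same length, 37.4% held at least 1 match to either form and 3.37% held as many as 3. The promoter held 9 CG pairs against a median of 7 in all promoters. A match to these letters is a description of the sequence and not evidence of binding.

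Counts of the 2 alleles differed for 7 of the 10 genes, with 5 higher from the B6 allele and 2 from the CAST allele (edgeR likelihood-ratio test, called at an adjusted p under 0.20 over all tested genes). This fit did not pair the 2 alleles of a mouse. Among all 21805 tested genes 32.6% were called, 17.2% with B6 higher and 15.4% with CAST higher. A fit that paired the alleles called 8 of the 10 genes and 42.7% of all tested genes. The median absolute log2 fold change was 1.15 over the 10 genes and 0.22 over all tested genes. More B6 than CAST counts in all 7 mice were found for 6 of the 10 genes, against 12.9% of tested genes, and more CAST counts in all 7 mice for 2, against 9.73%. The 4 genes H19, Igf2, Kcnq1ot1 and Cdkn1c had over 85% of their counts on 1 allele in every mouse. They stand among 8 genes of the cluster with 10 or more counts in each mouse, and 3.69% of the 15111 genes that deep were as one-sided, X-linked genes included. Among autosomal genes that deep the share was 1.24%.

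**Figure D1:**
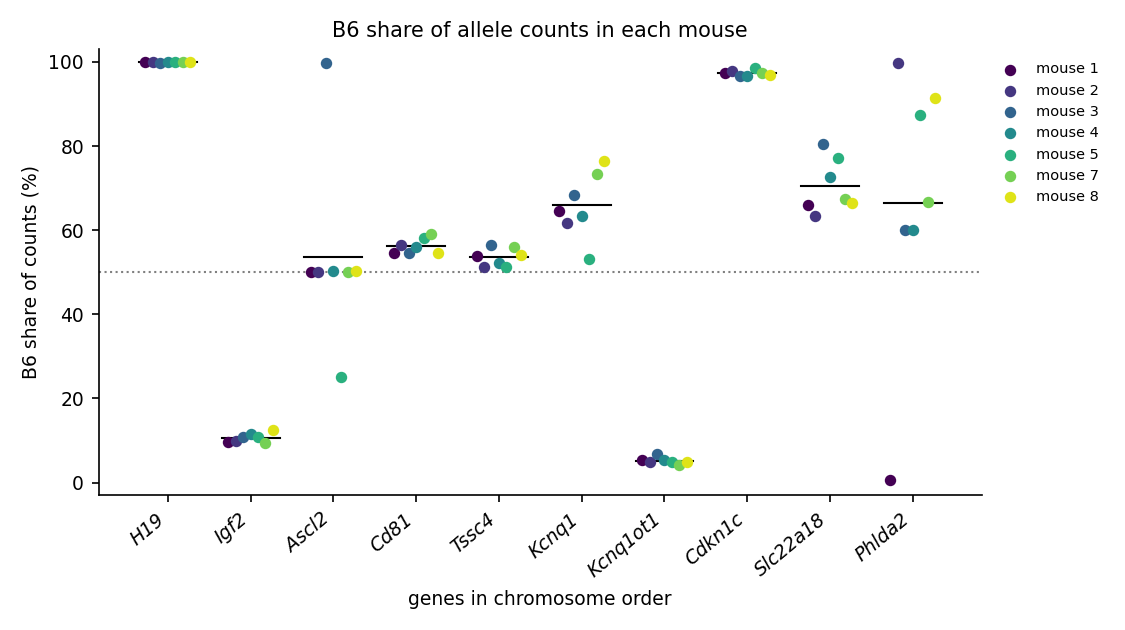
Share of allele counts (%) assigned to B6 for each gene in chromosome order. Each point is 1 mouse, the black bar is the mean of 7 mice and the dotted line marks 50%. H19 and Cdkn1c lay near the top and Igf2 and Kcnq1ot1 near the bottom in every mouse, while Phlda2, with 9 to 22 counts, ran from 0.524% to 99.8%.

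H19 (ENSMUSG00000000031, chr7:142575529-142578143, minus strand, a long intergenic noncoding RNA of 2.46 kb of exon in GENCODE M21, GRCm38/mm10) was the most one-sided of the 10 genes. B6 counts had a lowest value of 12203, a median of 24272 and a highest value of 27944, against CAST counts of 4.10, 22.8 and 45.0. The lowest B6 value therefore lay far above the highest CAST value. The CAST share by mouse was 0.133%, 0.0938%, 0.184%, 0.0373%, 0.0788%, 0.0336% and 0.133% for mice 1, 2, 3, 4, 5, 7 and 8. In mouse 7, the shallowest library, the 95% Wilson interval of that share was 0.0132% to 0.0854%. Total counts averaged 3.94 times the mean number of read pairs per library in the labels, so this and the intervals below may be too narrow. The mean count was 22532 ± 5182 (SD, n = 7) from B6 and 23.8 ± 14.6 from CAST, a log2 fold change of CAST over B6 of -9.92 (SE 0.27, adjusted p = 1.92e-283, edgeR). The log2 ratio was below 0 in 7 of 7 mice (mean -10.16 ± 0.89 SD, exact sign-flip permutation test, two-sided, p = 0.0156, the smallest that 7 mice allow, and 0.0682 adjusted over all tested genes).

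Cdkn1c (ENSMUSG00000037664, chr7:143458339-143461050, minus strand), which encodes p57, an inhibitor of cyclin-dependent kinases that holds cells out of the cell cycle and is needed for chondrocytes to become hypertrophic, was also expressed mainly from the B6 allele. B6 counts had a lowest value of 1886, a median of 3682 and a highest value of 4222, and CAST counts were 52.7, 96.3 and 137. The B6 share was lowest in mouse 4 at 96.6% and highest in mouse 5 at 98.6%, so the mice spanned a narrow range. Mean counts were 3419 ± 832 from B6 and 92.7 ± 30.3 from CAST, with a log2 fold change of -5.13 (SE 0.23, adjusted p = 5.01e-107, edgeR). CAST counts of Cdkn1c were 2.68% ± 0.70 (SD, n = 7) of its total, above the 0.0992% ± 0.055 of H19 in every mouse.

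Igf2 (ENSMUSG00000048583, chr7:142650766-142666816, minus strand) was expressed mainly from the CAST allele. CAST counts had a lowest value of 3046, a median of 5229 and a highest value of 6588, and B6 counts were 315, 618 and 928. The B6 share was 9.62%, 9.78%, 10.9%, 11.5%, 10.8%, 9.38% and 12.6% for mice 1, 2, 3, 4, 5, 7 and 8. About 1 Igf2 count in 10 was therefore assigned to the B6 allele in each mouse. Mean counts were 623 ± 199 from B6 and 5150 ± 1274 from CAST, an 8.27-fold difference with a log2 fold change of 3.06 (SE 0.20, adjusted p = 1.56e-50, edgeR). The total of Igf2 was not a whole number, to a tolerance of 1e-04, in 3 of 7 mice, which marks reads divided between Igf2 and other genes. The annotated gene Gm49394 covers 62.8% of the exon bases of Igf2 on the same strand but was not among the genes in the deposited counts.

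Kcnq1ot1 (ENSMUSG00000101609, chr7:143203458-143296549, minus strand, 93.1 kb without introns) was the other gene expressed mainly from the CAST allele. CAST counts had a lowest value of 1960, a median of 4247 and a highest value of 5935, and B6 counts were 82.9, 221 and 335. The B6 share ran from 4.06% in mouse 7 to 6.83% in mouse 3. Mean counts were 216 ± 98.4 from B6 and 3857 ± 1555 from CAST, a 17.8-fold difference with a log2 fold change of 4.19 (SE 0.15, adjusted p = 1.23e-168, edgeR). Totals of Kcnq1ot1 were not whole in any of the 7 mice. The B6 share of Igf2 was above that of Kcnq1ot1 in 7 of 7 mice.

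The maternal copy is the only X chromosome of a male, so X-linked genes show how many counts the authors' method placed on an allele that is absent. Over 257 X-linked genes that had 100 or more counts in each library, the CAST share had a median of 0.839%, a 75th percentile of 4.50% and a 95th percentile of 50%. A share of 50% is an even split, which reads divided between the alleles can give. The CAST share of H19, pooled over mice at 0.106%, was above that of 40 of the 257 genes. The CAST share of Cdkn1c, 2.64%, was above 169 of them, the B6 share of Kcnq1ot1, 5.31%, above 197, and the B6 share of Igf2, 10.8%, above 211. The X-linked genes show only counts from B6 RNA placed on the CAST allele. For Igf2 and Kcnq1ot1 the minor allele is B6, and counts placed in that opposite direction were not measured by this reference. Whether the minor allele counts of Igf2, Kcnq1ot1 and Cdkn1c were transcribed from the quieter allele or assigned to it by the counting was not tested.

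**Figure D2:**
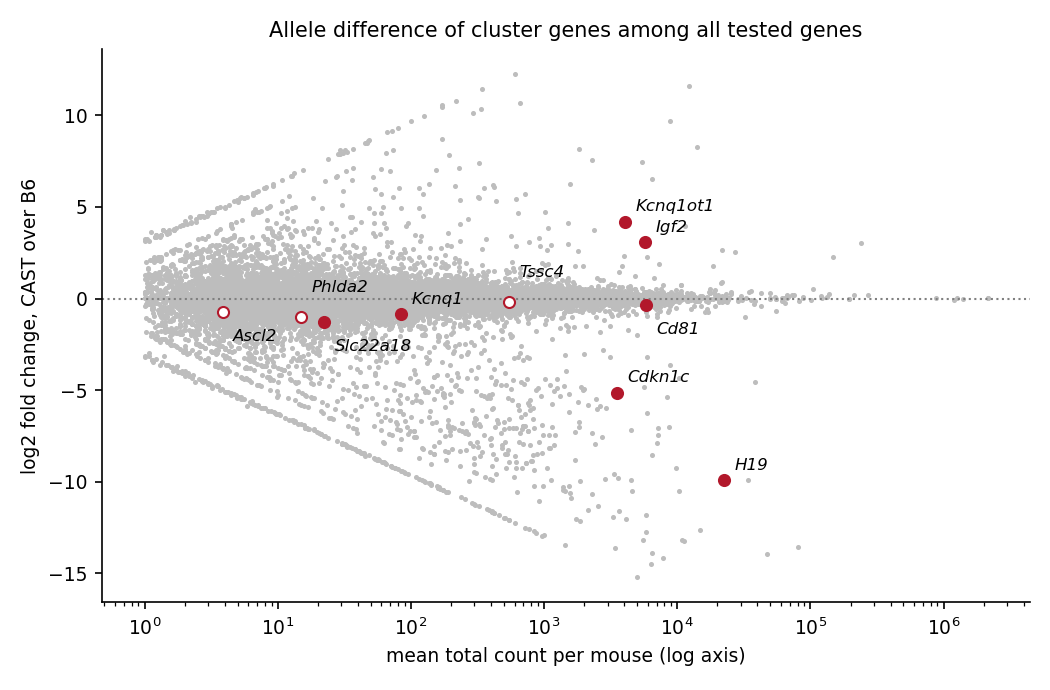
Log2 fold change of CAST over B6 from edgeR against the mean total count per mouse (log axis) for tested genes with a mean of at least 1 count. Grey points are all such genes, filled red points are genes of the cluster called at an adjusted p under 0.20 and open red points are those that were not. H19 at -9.92 and Cdkn1c at -5.13 lie below and Kcnq1ot1 at 4.19 and Igf2 at 3.06 above the main band of genes.

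Kcnq1 and Slc22a18 showed a smaller difference in the direction of B6. Kcnq1 (ENSMUSG00000009545, chr7:143106362-143427042, plus strand) encodes the pore subunit of a voltage-gated potassium channel of heart and inner ear. Its B6 share was 64.6%, 61.8%, 68.4%, 63.3%, 53.0%, 73.4% and 76.5% in mice 1, 2, 3, 4, 5, 7 and 8, on 35 to 111 counts. The share was above 50% in all 7 mice and lay close to it in mouse 5, whose Wilson interval of 43.7% to 62.2% covered 50%. Mean counts were 53.7 ± 16.4 from B6 and 30.3 ± 15.2 from CAST, with a log2 fold change of -0.86 (SE 0.23, adjusted p = 0.00131, edgeR). Kcnq1 shares 121 exon bases with Kcnq1ot1 on the opposite strand, its total was not whole in 2 mice, and whether the counting used strand is not given in the sources used here, so reads from these bases cannot be assigned with certainty.

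Slc22a18 (ENSMUSG00000000154, chr7:143473736-143499334, plus strand), a member of the organic cation transporter family, had 14 to 28 counts per mouse. Its B6 share was lowest in mouse 2 at 63.5%, had a median of 67.5% and was highest in mouse 3 at 80.4%. Mean counts were 15.8 ± 4.49 from B6 and 6.48 ± 1.98 from CAST, with a log2 fold change of -1.27 (SE 0.30, adjusted p = 0.000254, edgeR). All 7 mice were above 50%, although at this depth the Wilson interval of a single mouse was as wide as 41.6% to 85.8% in mouse 7. Kcnq1 and Slc22a18 had more CAST counts, as a share of their total, than Cdkn1c in every mouse.

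Cd81 and Tssc4 lay close to equal use of the alleles. Cd81 (ENSMUSG00000037706, chr7:143052739-143067934, plus strand), a tetraspanin of the cell surface, had a B6 share of 54.5% at the lowest, 56.1% at the median and 59.0% at the highest. Each of the 7 Wilson intervals lay above 50%, the lowest bound being 53.3%. Mean counts were 3259 ± 946 from B6 and 2549 ± 721 from CAST, with a log2 fold change of -0.34 (SE 0.09, adjusted p = 0.00160, edgeR).

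Tssc4 (ENSMUSG00000045752, chr7:143069249-143071093, plus strand) had a B6 share of 51.2% at the lowest, 53.7% at the median and 56.4% at the highest. Its log2 fold change of -0.18 (SE 0.11) was not called (adjusted p = 0.255, edgeR), although B6 counts were higher in 7 of 7 mice (exact sign-flip permutation test, two-sided, p = 0.0156, or 0.0682 adjusted over all tested genes). With the mouse as a block, which pairs the 2 alleles of a mouse, Tssc4 was called at -0.17 (edgeR, adjusted p = 0.00589), and it was also called with 1 library size per mouse (adjusted p = 0.146) and without mouse 4 (adjusted p = 0.178). Tssc4 shares 220 exon bases, 11.9% of its exon, with Trpm5 on the opposite strand, and its total was not whole in any mouse.

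Phlda2 and Ascl2 were too shallow to be compared closely. Phlda2 (ENSMUSG00000010760, chr7:143501545-143503150, minus strand), which encodes a small pleckstrin homology protein that limits growth of the placenta, had 9 to 22 counts per mouse. Its B6 share was 0.524% in mouse 1, where the other 6 mice had a lowest value of 60%, found in mice 3 and 4, and a highest value of 99.8%, found in mouse 2. Mice 5, 7 and 8 had 87.3%, 66.7% and 91.4%. Mouse 1, with 12 counts, thus went against the other 6, and the difference was not called (log2 fold change -1.03, SE 0.63, adjusted p = 0.274, edgeR). Without mouse 1 it was called with B6 higher (log2 fold change -1.56, adjusted p = 0.0157, edgeR). Mouse 1 was the only mouse with more CAST counts, so leaving it out favours B6 by construction. Leaving out any other single mouse gave no call, with adjusted p from 0.236 without mouse 4 to 0.525 without mouse 8 (edgeR). Ascl2 (ENSMUSG00000009248, chr7:142966829-142969264, minus strand), a basic helix-loop-helix factor of trophoblast, had 1 to 6 counts per mouse and a B6 share near 50% in 5 of the 7 mice, 25.0% in mouse 5 and 99.8% in mouse 3. Its log2 fold change was -0.72 (SE 0.59, adjusted p = 0.471, edgeR), and no difference of either sign was detectable at this depth.

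Of the other genes on distal chromosome 7, a list of 23 neighbours was followed, of which 20 were tested and 8 were called, 2 with B6 higher and 6 with CAST higher. With the mouse as a block 15 of the 20 were called (7 with B6 higher and 8 with CAST higher), where 42.7% of all tested genes were. The median absolute log2 fold change of the list was 0.23, against 0.22 over all tested genes. Between the outermost genes of the cluster, 10 further genes were tested. Mean totals were only 0.143, 0.289 and 0.0809 counts for Gm7290, Gm27395 and Gm27539, too few for a call, and 5.57 for Gm38065. Of all tested genes 32.6% were called without and 42.7% with the block. Of these 10, 1 was called, with and without the block. It was Igf2os, a transcript antisense to Igf2, with 0.269 B6 and 11.9 CAST counts on average and a B6 share of 1.98% ± 3.74 (SD, n = 7; log2 fold change 5.60, adjusted p = 2.00e-15, edgeR), and it shares 98 exon bases with Igf2. Its allele with more counts was that of Igf2.

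Next to H19, Mrpl23, a protein of the mitochondrial ribosome, had a B6 share of 10.3% ± 3.80 (SD, n = 7) on 24.9 B6 and 211 CAST counts on average (log2 fold change 3.12, adjusted p = 2.02e-73, edgeR). On the far side of Phlda2, Tnfrsf22, a decoy receptor for the death ligand TRAIL, had a B6 share of 98.1% ± 0.959 (log2 fold change -5.75, adjusted p = 1.66e-208, edgeR). The totals of both Mrpl23 and Tnfrsf22 were not whole in any mouse, and whether the division of reads between genes bears on their shares was not tested. Tnfrsf23, a paralog of Tnfrsf22, had a B6 share of 54.6% ± 7.34. It was not called without the block (log2 fold change -0.28, adjusted p = 0.254, edgeR). With the mouse as a block it was called with B6 higher (log2 fold change -0.29, adjusted p = 0.158, edgeR). Tnfrsf26, at 53.7% ± 7.27, was called in neither fit.

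The remaining neighbours called without the block had log2 fold changes of -0.44 for Osbpl5, an oxysterol-binding protein known for placental imprinting, 0.25 for Lsp1, 0.53 for Syt8, 0.58 for Shank2 and 1.10 for Dhcr7, the last enzyme of cholesterol synthesis. The B6 share of Osbpl5 was 58.1% ± 2.46 and that of Dhcr7 was 32.1% ± 2.40. Ctsd, a lysosomal protease with a B6 share of 52.9% ± 1.29, had more B6 counts in 7 of 7 mice, and Tnnt3, a troponin of fast muscle at 46.0% ± 1.87, had more CAST counts in 7 of 7. Both were called only with the block, Ctsd at a log2 fold change of -0.15 (adjusted p = 3.03e-06, edgeR) and Tnnt3 at 0.24 (adjusted p = 4.63e-09, edgeR). The genes Nap1l4 (48.0% ± 2.06) and Cars (52.9% ± 2.83), just beyond Phlda2, were likewise called only with the block (adjusted p = 0.0326 and 0.0331, edgeR), as were Mrgpre (0.162) and Cttn (0.186). Tnni2, Tspan32, Trpm5 and Nadsyn1 were called in neither fit, with mean B6 shares between 47.2% and 52.1%. Ins2, Th and Mrgprg did not pass the filter on counts.

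**Figure D3:**
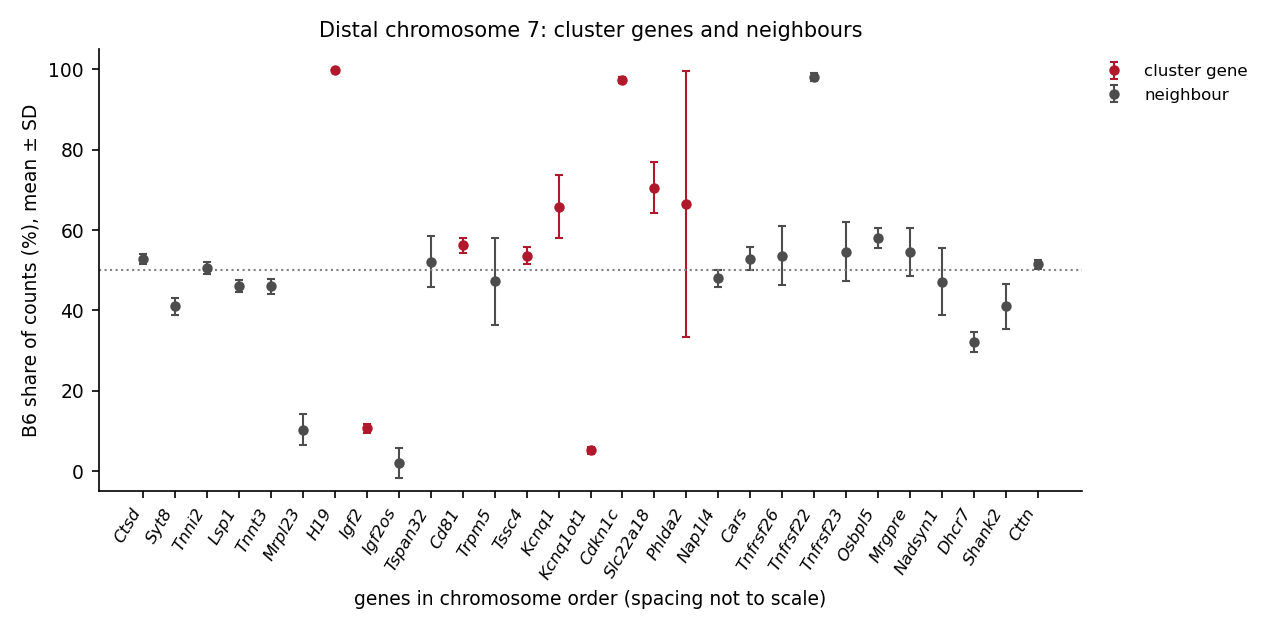
Mean share of counts assigned to B6 (%, error bars SD over 7 mice) for cluster genes (red) and listed neighbours (grey) with a mean total of at least 10 counts, in chromosome order with equal spacing. Most neighbours lie near the dotted line at 50%, while Mrpl23 (10.3%) and Igf2os (1.98%) lie near Igf2, and Tnfrsf22 (98.1%) lies near Cdkn1c.

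For comparison, imprinted genes of other domains were examined. Over all tested genes 17.2% were called with B6 higher and 15.4% with CAST higher. All 6 genes of a list with known maternal expression were called with B6 higher, among them Meg3 (99.8% ± 0.214 B6), Grb10 (92.7% ± 1.49) and Igf2r (97.7% ± 0.219), the receptor that clears IGF2. Of 13 tested genes known for paternal expression, 10 were called with CAST higher, such as Plagl1 (1.27% ± 0.234 B6), Peg3 (0.608% ± 1.05) and Ndn (9.43% ± 1.47). The exception among those called was Rtl1 (98.7% ± 1.17 B6), a locus with a known maternal antisense transcript. Nnat (50.2% ± 0.474) and Inpp5f (45.4% ± 8.66) were not called. Counts of Nnat were split almost evenly in every mouse, with a highest B6 share of 51.3%, which reads divided between the alleles can give. Whether Nnat was transcribed from both alleles was therefore not tested.

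Levels were compared between genes as CPM per kilobase of exon. H19 stood highest at 355 ± 50.1 (SD, n = 7), followed by Cd81 at 76.6 ± 2.50, Cdkn1c at 66.6 ± 9.69, Igf2 at 39.5 ± 9.22, Tssc4 at 11.1 ± 0.722, Kcnq1ot1 at 1.62 ± 0.318, Kcnq1 at 0.770 ± 0.174, Phlda2 at 0.534 ± 0.192, Slc22a18 at 0.514 ± 0.104 and Ascl2 at 0.0946 ± 0.0461. The ranges over mice did not overlap between H19 and Cd81, Igf2 and Tssc4, Tssc4 and Kcnq1ot1, Kcnq1ot1 and Kcnq1, or Slc22a18 and Ascl2. They overlapped for Cd81 and Cdkn1c, for Cdkn1c and Igf2, for Kcnq1 and Phlda2, and for Phlda2 and Slc22a18, the last pair standing in this order in only 3 of 7 mice. By mean count, not divided by length, 65 genes in the whole tissue lay above H19. In bulk tissue, fewer cells of a type and less RNA per cell cannot be told apart.

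**Figure D4:**
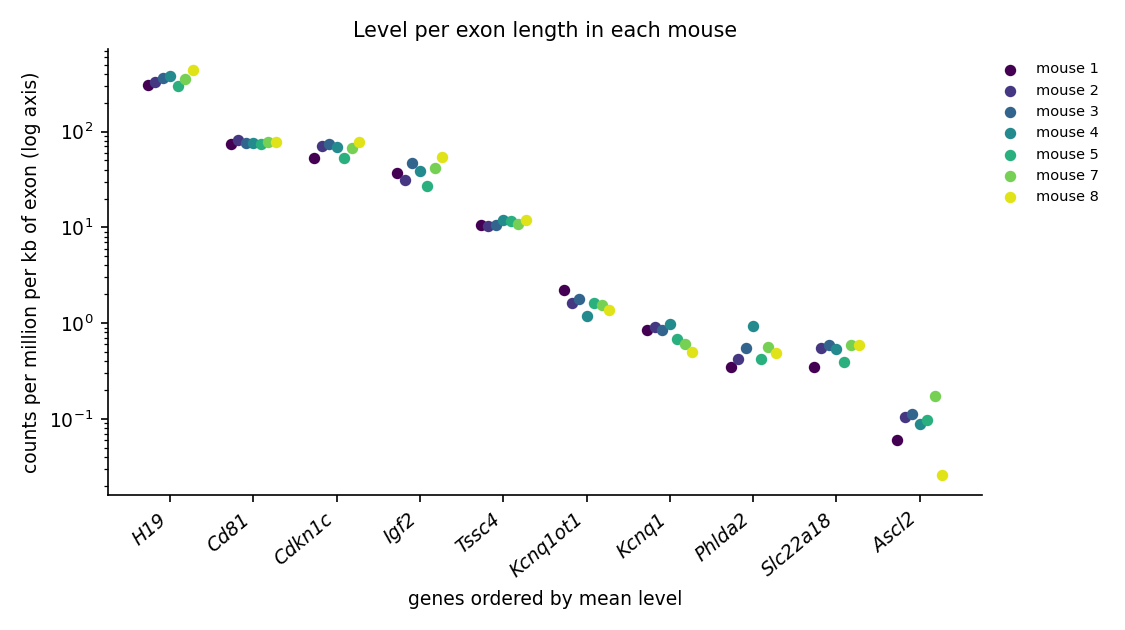
Level in CPM per kilobase of exon (log axis) for the 10 genes, ordered by mean level, with 1 point per mouse. H19 (mean 355) lies above the rest in every mouse and Ascl2 (mean 0.0946) below, while Cd81 and Cdkn1c overlap.

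The genes varied to unlike degrees between mice. H19 was 755, 817, 885, 949, 739, 866 and 1096 CPM in mice 1, 2, 3, 4, 5, 7 and 8. Igf2 was 210, 178, 268, 223, 155, 238 and 311 CPM in the same order, and Cdkn1c was 109, 145, 150, 140, 109, 138 and 160 CPM. All 3 genes were highest in mouse 8 and lowest in mouse 5. Kcnq1ot1 did not follow them, with 205 CPM in mouse 1 as its highest value and 111 CPM in mouse 4 as its lowest. Cd81 ran only from 213 to 235 CPM, a coefficient of variation of 3.26%, against 14.1% for H19, 14.6% for Cdkn1c, 19.6% for Kcnq1ot1 and 23.3% for Igf2. Tssc4 varied by 6.48%.

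**Figure D5:**
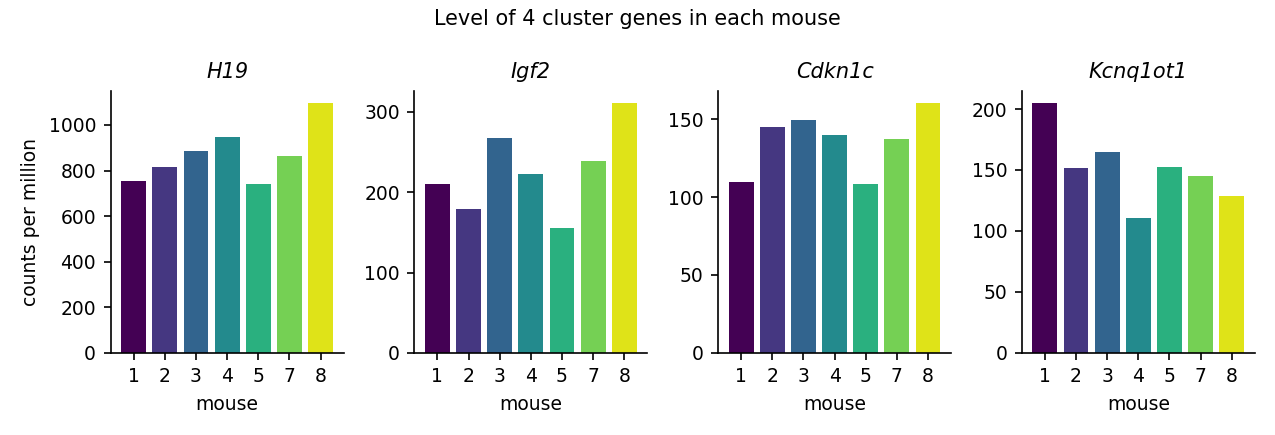
Level in CPM of H19, Igf2, Cdkn1c and Kcnq1ot1, 1 bar per mouse, each panel with its own axis from 0. Mouse 8 has the highest H19 (1096), Igf2 (311) and Cdkn1c (160), and mouse 1 the highest Kcnq1ot1 (205).

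Across the 7 mice, log2 CPM of H19 and Igf2 gave Pearson's r = 0.84 (exact permutation test, p = 0.0202, adjusted over the 3 pairs compared 0.0304) and Spearman's rho = 0.86 (exact permutation p = 0.0238, adjusted 0.0512). For H19 and Cdkn1c r was 0.84 (exact permutation p = 0.0173, adjusted 0.0304) and rho was 0.82 (exact permutation p = 0.0341, adjusted 0.0512). For Igf2 and Cdkn1c r was 0.71 (exact permutation p = 0.0734) and rho was 0.75 (exact permutation p = 0.0663), past no threshold. Without the 2 mice farthest from the median of the first gene, r was 0.48, 0.71 and 0.22 in the same order over 5 mice. Dropping the most extreme mice narrows the range of the first gene and tends to lower r. This check therefore cannot show whether a relation rested on those 2 mice. The relation of H19 with Igf2 missed p = 0.05 without mouse 5 (r = 0.77, exact permutation p = 0.0722) or mouse 8 (r = 0.70, exact permutation p = 0.121). That of H19 with Cdkn1c missed it without mouse 1 (r = 0.81, exact permutation p = 0.0708), mouse 5 (r = 0.78, exact permutation p = 0.0806) or mouse 8 (r = 0.82, exact permutation p = 0.0542). The genes of a pair share the library and its total. Summed chondrocyte markers were lowest in mouse 8, at 62160 CPM, summed erythroid markers were highest in mouse 5, at 19319 CPM, and the Rn7 share was highest in mouse 8, at 23.8%. The part of these differences in the correlations was not tested.

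Of 9942 genes with 100 or more counts in each mouse, those whose log2 CPM over the 7 mice was most like H19 were Hist1h2af (r = 0.96), Rtl3 (r = 0.95) and Ndn (r = 0.95). Those most like Igf2 were Zfp219 (r = 0.94), Sfrp1 (r = 0.93) and Hoxa11os (r = 0.91), and those most like Cdkn1c were Thnsl2 (r = 0.96), Fxyd1 (r = 0.94) and Snhg18 (r = 0.94). These are the highest of many values over 7 mice and are given as a description.

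Among the partners of IGF2, 15 of 16 listed ligands, receptors and binding proteins were tested and 9 were called, 7 with B6 higher and 2 with CAST higher. With the mouse as a block 13 were called, 10 with B6 higher and 3 with CAST higher. Over all tested genes the called share was 32.6% without and 42.7% with the block. The ligand Igf1 had a B6 share of 48.7% ± 2.36 (SD, n = 7) and a log2 fold change of 0.10. It was not called without the block (adjusted p = 0.735, edgeR) and was called with CAST higher with it (adjusted p = 0.159, edgeR). The receptor Igf1r was called at -0.18 without the block (adjusted p = 0.197, edgeR). Apart from Igf2r, differences called without the block were below 1 on the log2 scale, with -0.48 for Igfbp4, -0.51 for Igfbp7, -0.42 for Igfbp3 and -0.35 for Igfbp6, binding proteins that hold IGFs outside cells, and 0.49 for Stc2, an inhibitor of the protease that frees IGF from them. Igfbp5, the most abundant of the binding proteins, had more B6 counts in 7 of 7 mice (51.4% to 53.7% B6) and was called only with the block (-0.11, adjusted p = 0.648 without and 1.95e-09 with it, edgeR). Of 3 genes for proteins that bind Igf2 mRNA, Igf2bp1 was called with CAST higher on 2.12 B6 and 5.02 CAST counts on average (log2 fold change 1.18, adjusted p = 0.128, edgeR). At this low depth its B6 share ran from 0.000247% to 83.8%, and 2 of 7 mice had more B6 counts.

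Among the relatives and targets of Cdkn1c, 13 of 14 listed inhibitors, cyclins and kinases were tested, and 3 inhibitors were called, all with CAST higher. They were Cdkn1a (log2 fold change 0.22, adjusted p = 0.111, edgeR), Cdkn2c (0.31, adjusted p = 0.00910) and Cdkn2d (0.48, adjusted p = 0.00819). The block gave 3 calls as well. Of all tested genes 32.6% were called without and 42.7% with the block, so 3 of 13 is no excess of calls. The closest relative, Cdkn1b, was called in neither fit and had a B6 share of 50.7% ± 2.79. Of 11 genes for proteins that set or keep imprints, all tested, Eed (log2 fold change -0.49, adjusted p = 0.0400, edgeR) and Smchd1 (-0.21, adjusted p = 0.162, edgeR) were called with B6 higher. With the mouse as a block 7 of the 11 were called, 5 with B6 higher and 2 with CAST higher. The shares over all tested genes to set beside these counts are again 32.6% without and 42.7% with the block. Ctcf, whose protein binds the control region between H19 and Igf2, had a B6 share of 52.8% ± 3.21 and was called only with the block (adjusted p = 0.0554, edgeR). Dnmt1, which copies methylation at cell division, had a B6 share of 48.6% ± 1.49 and was also called only with the block (adjusted p = 0.0121, edgeR).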

How the data were processed

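Growth plates of 7 male F1 mice were sequenced as total RNA depleted of rRNA, from a stranded kit. The authors aligned reads with Bowtie (version not given in the sources used here) to a joint B6 and CAST transcriptome (mm10), allowing at most 3 mismatches, and deposited estimated counts per gene and allele made with EMASE, not normalized. EMASE splits a read with several equally good origins between alleles or genes, so values need not be whole. Read ends were processed separately and kept where both aligned, and lanes were processed separately. Deposited totals averaged 3.94 times the mean number of read pairs per library that the labels give, and how they were summed is not given in the sources used here. Wilson intervals cover counting error only and are too narrow if a fragment counts more than once.

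Gene names and coordinates came from GENCODE M21, which held 42462 of 43346 identifiers (98.0%). Tested genes (21805) had, in each of the mice, an allele with a count above 0. Counts were rounded and alleles compared with edgeR 4.0.16 (R 4.3.3, TMM factors, glmFit, glmLRT), with Benjamini-Hochberg adjustment over all tested genes. SE values were taken from the fold change and its likelihood-ratio statistic. Log2 ratios with 0.5 added to each allele were tested by exact sign-flip permutation (numpy 2.4.6). The fit was tested on simulated data, where it recovered most changed genes and made more false calls than its threshold allows. The B6 and CAST counts of a simulated mouse were drawn independently, unlike those of a real mouse, so these rates need not hold for the data.

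The B6 and CAST columns of a mouse were read from the same library and are therefore paired. The main edgeR fit had the allele as its only term and left this pairing out. Their deviations from the allele means correlated at a mean r of 0.18 (lowest 0.05) within mice and -0.03 between mice over 15111 genes. Alternatives were the quasi-likelihood test, DESeq2 1.42.0, the mouse as a block, other library sizes, filters, thresholds and pseudocounts, counts without rounding, and leaving out single mice. The 10 genes and all lists were chosen with earlier results of these data known. The text names all 10 genes, up to 8 genes per list by mean count, all tested neighbours and the 3 genes most like each of H19, Igf2 and Cdkn1c. Igfbp6, Stc2, Cdkn1a, Nnat and Eed fall outside this rule and were named after their values were seen.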

Additional observations from a re-analysis of the deposited data

Results flagged for a closer look

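In 20 sets of 7 values (the log2 allele ratio and the log2 level of each of the 10 genes), 1 held a mouse that stood apart from the other 6 by Dixon's criterion, and chance gives about 1. It was the log2 ratio of CAST to B6 counts of Ascl2 in mouse 3, at -3.42, against -0.02 to 1.32 in the other mice. Ascl2 had 5 counts in mouse 3. In most of the other mice its counts were split almost evenly, which reads divided between the alleles can give.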

How the results depend on the processing

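The 7 genes called were H19, Igf2, Kcnq1ot1, Cdkn1c, Kcnq1, Slc22a18 and Cd81, and each was called again in the same direction under every alternative run. The count of called genes of the cluster ran from 7 to 8, and that over all tested genes from 4816 at an adjusted p under 0.05 to 9315 with the mouse as a replicate block. Leaving out 1 mouse gave 6382 to 6931. The block changed the call of Tssc4 (log2 fold change -0.17) and of no other gene of the cluster. Among the listed genes it added calls and lost none. A filter that took values of 1e-09 or less as 0, chosen after seeing the data, tested 20229 genes, called 7001 and kept 7 of the 10. The mean log2 ratio of Ascl2 turned from -0.30 to 0.22 without mouse 3 and lay between -0.57 and 0.22 over all mice left out in turn. The correlation of Igf2 with Cdkn1c rose to 0.76 (exact permutation p = 0.0496) with Rn7s1, Rn7s2 and Rn7sk left out of the library total, and the cause was not tested. Leaving out 1 mouse gave r of 0.70 to 0.89 for H19 with Igf2, 0.78 to 0.92 for H19 with Cdkn1c and 0.51 to 0.89 for Igf2 with Cdkn1c, the last passing the threshold of 0.05 (exact permutation test) without mouse 1 or mouse 2, where p was 0.0347 and 0.00833. With the Rn7 genes left out, CPM rose for all 10 genes, for example from 872 to 1096 for H19. Depth limits Phlda2 and Ascl2 most, and a reciprocal cross was not analysed here.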
